A study of Mus musculus with 3 samples.

Results

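Pericytes of murine granulation tissue were examined in single-cell RNA sequencing libraries of skin wounds on Day 7 and Day 14. They were chosen by measured values: at least 1000 UMIs (unique molecular identifiers, counts of captured RNA molecules), at most 10% mitochondrial UMIs, at least 5 UMIs and at least 0.15% of UMIs from Rgs5, Notch3, Kcnj8, Abcc9, Higd1b and Cspg4 together, Dcn plus Col1a2 below 1.5% of UMIs, and at most 1 UMI of Pecam1 plus Cdh5. These limits kept 606 barcodes of 39535 in both libraries (187 on Day 7 and 419 on Day 14). All 3 libraries of the series together held 44693 barcodes. Every library came from C57BL/6J mice, by the methods males aged 7 to 12 weeks with full-thickness excisional wounds, and no genotype or treatment other than wounding is given. The groups were the times after wounding, Day 3, Day 7 and Day 14. By the methods, tissue of 4 wound samples was pooled, digested with warm enzymes, cleared of dead cells and debris and captured unsorted as a single library. With 1 library per day there is no replicate, so no test was made. Every interval below is a 95% interval that covers counting error only.

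Pericytes are mural cells that wrap capillaries and small venules and share a basement membrane with the endothelium. Endothelial cells recruit them with PDGF-B, which acts on the receptor PDGFRB, and instruct them through Notch ligands that act on NOTCH3. In healing wounds they cover new capillaries, regulate their calibre by contraction and can secrete chemokines that attract leukocytes. Rgs5 encodes a regulator of G-protein signalling, Kcnj8 and Abcc9 encode the pore and the regulatory subunit of a vascular ATP-sensitive potassium channel, and Cspg4 encodes the NG2 proteoglycan.

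The label was checked on genes that the limits did not use. Mural genes such as Pdgfrb, Mcam and Gja4 were abundant, with values given below. Of the 10 genes of the endothelial list, Kdr, Tie1 and Cldn5 held at most 2 UMIs over all members of a library, and Emcn, Egfl7 and Plvap were at 3.30 to 17.8 CPM (summed UMIs scaled to a library sum of 1000000) against 434 to 797 CPM in endothelial barcodes. Flt1 and Fabp4 of the same list were the exception. Flt1, a VEGF receptor, was at 270 CPM on Day 7 and 195 CPM on Day 14, and Fabp4, a fatty acid carrier, was at 1780 and 2323 CPM. In endothelial barcodes Flt1 was at 450 and 599 CPM and Fabp4 at 3000 and 9296 CPM. The members therefore carried Flt1 and Fabp4 but next to no Kdr, Tie1 or Cldn5, while Pecam1 and Cdh5 were held low by the selection itself.

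Other cells were picked for comparison under the same limits on UMIs and mitochondrial share. Fibroblast barcodes had Dcn plus Col1a2 at 1.5% of UMIs or more (6895 on Day 7 and 7385 on Day 14). Endothelial barcodes numbered 206 and 140, and macrophage barcodes 4365 and 2098. Median depth was 5651 UMIs in the pericytes of Day 7 and 4147 in those of Day 14, against 10517 and 10570 in fibroblast barcodes, 7057 and 4719 in endothelial barcodes and 3278 and 3954 in macrophage barcodes. The macrophage list summed to 1521 and 2045 CPM in pericytes, the fibroblast list to 14400 and 9483 CPM, with all 10 genes of either list detected. The T cell, Schwann cell, erythrocyte, skeletal muscle, adipocyte and melanocyte lists summed to between 0 and 19.9 CPM. Of the Day 14 members, 3 lay on barcodes that both libraries hold, and of the Day 7 members none did. The transcript Gm42418, which overlaps ribosomal RNA, took 13.6% of the pericyte UMIs on Day 7 and 8.04% on Day 14.

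Of the members, 22 on Day 7 and 30 on Day 14 lay below 0.3% for the 6 genes. The lowest share of the 6 genes inside the limit was 0.160% of UMIs on Day 7 and 0.162% on Day 14, and the highest just outside it was 0.149% and 0.144%. The highest Dcn plus Col1a2 share of a member was 1.45% and 1.48%, and the lowest of a barcode left out for it was 1.52% and 1.53%. There were 19 and 12 members above 0.75%. That limit removed 22 barcodes on Day 7 and 39 on Day 14. The endothelial limit removed 2 and 5.

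Pericytes made up a larger share of the Day 14 library than of the Day 7 library. On Day 7 they were 0.988% (exact binomial interval 0.852% to 1.14%) of 18923 barcodes that met the UMI and mitochondrial limits. On Day 14 they were 3.04% (2.76% to 3.34%) of 13803. The log2 ratio of the shares was 1.62 (1.37 to 1.88). The share of fibroblast barcodes had a log2 ratio of 0.55 (0.51 to 0.60), that of endothelial barcodes -0.10 (-0.42 to 0.21), and that of macrophage barcodes -0.60 (-0.68 to -0.53). There were 0.908 pericyte barcodes per endothelial barcode on Day 7 (0.741 to 1.11) and 2.99 on Day 14 (2.47 to 3.65). Both sets needed a minimum of marker UMIs, 3 for endothelial barcodes and 5 for pericytes. Median depth was lower on Day 14, at 7057 and 4719 UMIs in endothelial barcodes and 5651 and 4147 in pericytes. The part of depth in this ratio was not tested. All these shares and ratios are of barcodes of a library and not numbers of cells in the wound.

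The 6 genes that chose the members are given as a description. Rgs5 differed little, with 6893 CPM on Day 7 and 6870 CPM on Day 14. Notch3 stood at 648 and 781 CPM, Abcc9 at 531 and 406 CPM, Higd1b at 238 and 192 CPM, and Kcnj8 at 178 and 121 CPM. Cspg4 differed most, with 222 CPM on Day 7 and 73.8 CPM on Day 14, a log2 ratio of -1.59 (-1.89 to -1.29). The same genes summed to 65.5 and 80.0 CPM in fibroblast barcodes. After each member was thinned at random to 1000 UMIs, so that depth was equal, the median member held 6 Rgs5 UMIs on both days, with a range of 0 to 30.

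A gene was called higher or lower when the ratio of 2 summed CPM values was at least 2-fold and its exact conditional binomial interval excluded 1. Against fibroblast barcodes of the same library, 673 of 5724 genes were higher in pericytes on both days (11.8%) and 416 were lower on both days (7.27%). The members were defined by this very contrast, so these counts only describe them. The median log2 ratio over all 5724 genes was 0.28 on both days. After scaling by the median of ratios the split was 480 higher and 573 lower.

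Beside the genes used for selection, the mural identity was broad. Of 22 measured genes of the mural list, 21 were higher than in fibroblast barcodes on both days, beside 11.8% of all genes. The list's median log2 ratio over fibroblast barcodes was 4.86 on Day 7 and 4.55 on Day 14. Pdgfrb, the receptor for endothelial PDGF-B, was at 964 CPM in pericytes and 109 CPM in fibroblast barcodes on Day 7, and at 700 and 107 CPM on Day 14. Mcam, an adhesion molecule of vascular cells, was at 335 and 264 CPM in pericytes and at no more than 2.11 CPM in fibroblast barcodes. Gja4, a gap junction protein, was at 203 and 232 CPM, and Trpc6, a calcium-permeable channel, at 87.5 and 70.7 CPM. Aspn, a small proteoglycan, was the member of the list that was not higher, at 555 and 460 CPM in pericytes and 960 and 1592 CPM in fibroblast barcodes.

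**Figure D1:**
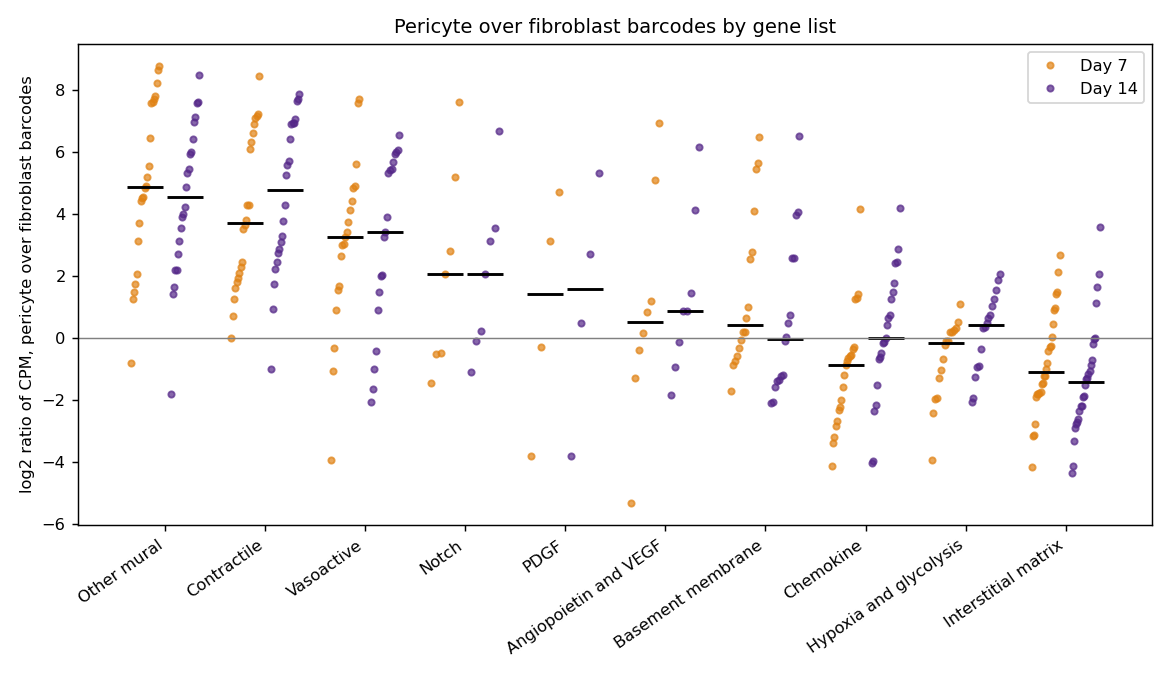
Log2 ratio of summed CPM in pericyte barcodes over fibroblast barcodes for each measured gene of 10 lists, Day 7 in orange and Day 14 in purple, with black bars at the list medians. The mural, contractile and vasoactive lists lie mostly above 0 on both days, and the interstitial matrix list lies mostly below 0 with medians of -1.10 and -1.41.

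The 12 genes with the largest ratio over fibroblast barcodes on both days, outside the genes used for selection, were Olfr558, H2-M9, Myh11, Tinagl1, Gm13889, Gja4, Ano1, Colec11, Atp1b2, Cox4i2, Mcam and Synpo2. Their smaller ratio of the 2 days was between 6.93 and 8.68 on the log2 scale. Olfr558, an odorant receptor gene, was at 153 CPM in pericytes and 0.238 CPM in fibroblast barcodes on Day 7. It was at 101 and 0.247 CPM on Day 14 and held no UMI in endothelial barcodes on either day. Ano1, a calcium-activated chloride channel of contractile cells, was at 138 and 163 CPM in pericytes and below 1 CPM in fibroblast barcodes. Tinagl1, a secreted protein of basement membranes, was at 394 CPM on Day 7 and 910 CPM on Day 14 in pericytes, with 213 and 370 CPM in endothelial barcodes. Gm13889 was at 1394 and 4940 CPM, so it was 3.54-fold higher on Day 14.

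Genes of contraction were the second large group. Of 22 measured contractile genes, 20 were higher in pericytes than in fibroblast barcodes on both days, beside 11.8% of all genes. Smtn and Myl6 were not higher on both days. Acta2, smooth muscle actin, was at 3007 CPM (2910 to 3106) in pericytes on Day 7, and on Day 14 it stood at 3117 CPM (3039 to 3197). In fibroblast barcodes it was at 240 and 25.4 CPM. Myh11, smooth muscle myosin, was at 550 CPM (509 to 594) and 698 CPM (661 to 736) in pericytes, and at 1.56 and 2.95 CPM in fibroblast barcodes. In pericytes neither gene differed by 2-fold between the days, while fibroblast Acta2 was lower on Day 14. Des, the muscle intermediate filament desmin, was at 326 and 211 CPM, and Itga1, a collagen and laminin receptor subunit, at 1035 and 727 CPM.

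Receptors and enzymes that set vessel tone followed the same pattern. Of 19 measured vasoactive genes, 14 were higher in pericytes than in fibroblast barcodes on both days, S1pr2 and Adm were lower, and the other 3 were neither. The shares over all genes were 11.8% higher and 7.27% lower, so the share lower was near that of all genes. Rgs4, Gucy1a1, Gucy1b1, Ednra and Ednrb are also in the mural list, so the lists overlap. Gucy1a1 and Gucy1b1, the subunits of the nitric oxide receptor, were at 450 and 182 CPM on Day 7 and 553 and 315 CPM on Day 14. The endothelin receptors Ednra and Ednrb were at 266 and 271 CPM on Day 7 and 251 and 270 CPM on Day 14. In fibroblast barcodes these 4 genes were between 0.872 and 16.7 CPM. Rgs16, another regulator of G-protein signalling, was at 848 and 1342 CPM in pericytes and 17.2 and 14.4 CPM in fibroblast barcodes.

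Pdgfb with its receptor gene, and Dll4, divided between endothelial barcodes and pericytes, while Jag1 was found in both. Pdgfb, the ligand, was at 283 and 173 CPM in endothelial barcodes and at 13.2 and 13.1 CPM in pericytes, whose receptor gene Pdgfrb was at 3.53 and 4.46 CPM in the endothelial barcodes. Pdgfa, whose product acts on the fibroblast receptor PDGFRA, was at 287 and 362 CPM in pericytes and 11.1 and 8.95 CPM in fibroblast barcodes. Jag1, a Notch ligand, was at 164 and 119 CPM in pericytes and 65.9 and 42.4 CPM in endothelial barcodes. Dll4, an arterial Notch ligand, had no UMI in pericytes, which allows up to 3 UMIs in each library's sum, and was at 78.9 and 142 CPM in endothelial barcodes. Of the Notch targets, Nrarp was at 62.8 and 115 CPM and Heyl at 73.5 and 32.5 CPM in pericytes.

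Of the angiopoietin genes, Angpt2 was set beside fibroblast barcodes and the receptor gene beside endothelial barcodes. Angpt2, which loosens endothelial contacts, was at 146 CPM on both days in pericytes and at 4.27 and 8.36 CPM in fibroblast barcodes. Angpt1, which stabilises them, was at 23.1 CPM on Day 7 and 49.2 CPM on Day 14, and was not called against fibroblast barcodes on both days. Their receptor gene Tek was at 111 and 127 CPM in endothelial barcodes and held no UMI on Day 7 and 3 UMIs on Day 14 in pericytes.

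Among basement membrane genes, the type IV collagens stood out. Col4a1 was at 3725 CPM on Day 7 and 2393 CPM on Day 14 in pericytes, 2763 and 1521 CPM in endothelial barcodes, and 74.2 and 154 CPM in fibroblast barcodes. Col4a2 was at 1674 and 1456 CPM in pericytes. With Lama5, Col18a1 and Agrn these were the 5 of 16 measured genes that were higher than in fibroblast barcodes on both days. Sparc was lower and the other 10 were neither, Nid1, Lamc1 and Hspg2 included. Among all genes 11.8% were higher and 7.27% lower on both days, so the share lower was near that of all genes.

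Interstitial matrix genes were more often lower than higher beside fibroblast barcodes. Of 26 measured genes, 12 were lower on both days, 2 were higher (Adamts4, an aggrecan-cleaving protease, and Timp3, an inhibitor of metalloproteinases), and 12 were neither. Among all genes 7.27% were lower and 11.8% higher on both days, so the share higher did not exceed that of all genes. Col3a1, a fibrillar collagen, was at 3891 and 3455 CPM in pericytes and 33420 and 33890 CPM in fibroblast barcodes. In macrophage barcodes Col3a1 was at 813 and 859 CPM. Col6a3, which was at 2849 and 952 CPM in pericytes and 2077 and 1726 CPM in fibroblast barcodes, was at 72.5 and 62.4 CPM in macrophage barcodes.

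The 12 genes with the lowest ratio to fibroblast barcodes were Saa3, Angptl1, Cldn10, Sfrp4, Itgbl1, Clec3b, Mmp3, Adgrd1, Mfap4, Dpep1, Igfbp6 and Slc4a4. Of these, Itgbl1, a secreted integrin-like protein, held 1 UMI in the pericytes of Day 7 and 22 UMIs (11.5 CPM) in those of Day 14, against 87.5 and 332 CPM in fibroblast barcodes. In macrophage barcodes it was at 2.93 and 11.7 CPM. The pericyte value of Itgbl1 was thus at the level of macrophage barcodes on Day 14.

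Between the 2 days, 403 of 5895 genes were higher in pericytes on Day 14 (6.84%) and 465 were lower (7.89%). In fibroblast barcodes 2.63% of the same genes were higher and 3.7% lower. These genes were kept by their mean CPM in pericytes alone. The pericyte sums held 1210806 and 1910628 UMIs, and the fibroblast sums 75664556 and 80908885. The shares called in pericytes and in fibroblast barcodes are therefore not directly comparable. The median log2 ratio over these 5895 genes was -0.12 in pericytes and -0.14 in fibroblast barcodes. After scaling by the median of ratios the split was 498 higher and 341 lower, and without Gm42418 and mitochondrial genes it was 340 higher and 715 lower. Of the genes called higher, 184 had a pericyte ratio at least 2-fold above the fibroblast ratio with an interval that excluded equality. Of those called lower, 104 had a pericyte ratio at least 2-fold below it. Both ratios come from the same 2 libraries, and day and library cannot be told apart.

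**Figure D2:**
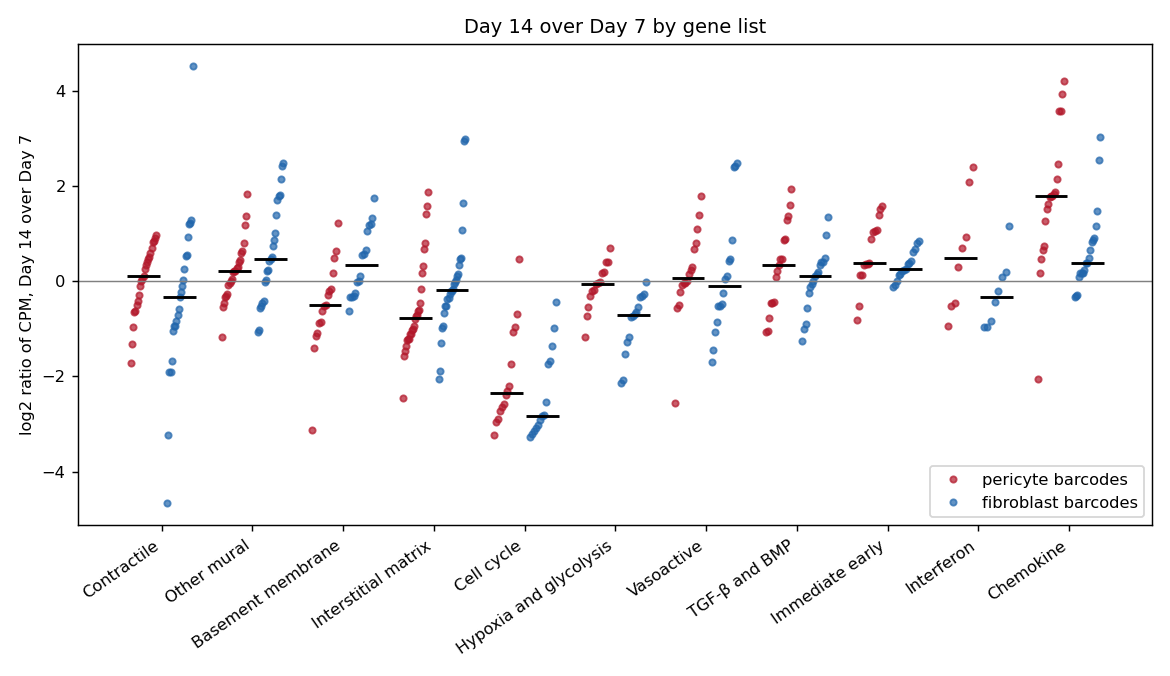
Log2 ratio of summed CPM, Day 14 over Day 7, for each measured gene of 11 lists in pericyte barcodes (red) and fibroblast barcodes (blue), with black bars at the list medians. In pericytes the chemokine list has a median of 1.78 and the cell cycle list one of -2.34, and the contractile list has a median of 0.10.

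Chemokines and other inflammatory genes were the list with the most genes higher on Day 14. Of 19 measured genes, 14 were higher in pericytes, Ptgs2 was lower and 4 were neither, with a median log2 ratio of 1.78. In fibroblast barcodes 4 of the 19 were higher, none was lower, and the median was 0.38. The shares over all genes were 6.84% higher and 7.89% lower in pericytes. They were 2.63% higher and 3.7% lower in fibroblast barcodes. Ccl4, a chemokine outside this list, was lower on Day 14 in both cell sets. Its log2 ratio was -3.08 (-3.79 to -2.43) in pericytes and -2.19 in fibroblast barcodes. Of the 123 Ccl4 UMIs of the Day 7 pericytes, 1 member held 78. Ccl2, which attracts monocytes, was at 346 CPM (314 to 381) on Day 7, and on Day 14 it stood at 4121 CPM (4030 to 4213), an 11.9-fold difference. Of the 419 Ccl2 UMIs of the Day 7 pericytes, 1 member held 137. In fibroblast barcodes Ccl2 was at 782 and 1464 CPM. The pericyte value was thus below the fibroblast value on Day 7 and above it on Day 14.

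Cxcl10, Ccl11 and Cxcl1 also lay below the fibroblast value on Day 7 and above it on Day 14. Ccl7, another monocyte attractant, was below it on both days, at 165 and 731 CPM in pericytes and 1177 and 2088 CPM in fibroblast barcodes. Cxcl10, an interferon-responsive attractant of T cells, was at 72.7 CPM on Day 7 and 1345 CPM on Day 14 in pericytes, and at 216 and 391 CPM in fibroblast barcodes. Ccl11, the eosinophil attractant eotaxin, was at 77.6 and 1189 CPM in pericytes and 99.4 and 220 CPM in fibroblast barcodes. In endothelial and macrophage barcodes Ccl11 was between 2.61 and 6.18 CPM on both days. Cxcl1, a neutrophil attractant, was at 1257 and 6928 CPM in pericytes and 2077 and 2889 CPM in fibroblast barcodes.

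The difference of the pericyte and fibroblast log2 ratios was 3.35 for Cxcl10, 2.79 for Ccl11, 2.67 for Ccl2 and 1.99 for Cxcl1. Il6, an acute-phase cytokine, was the measured member that was higher in pericytes than in fibroblast barcodes on both days and higher on Day 14. It was at 645 CPM (601 to 692) on Day 7, and on Day 14 it stood at 2299 CPM (2231 to 2368) in pericytes. In fibroblast barcodes it was at 263 and 310 CPM. Cxcl12, the ligand of CXCR4, was at 40.5 and 139 CPM in pericytes while it was at 187 and 149 CPM in fibroblast barcodes. Nfkbia, the NF-κB inhibitor gene that NF-κB itself induces, was at 1117 and 2681 CPM in pericytes and 1625 and 1722 CPM in fibroblast barcodes. Il34 and Il1r1, also higher than in fibroblast barcodes on both days, had log2 ratios between days of 0.17 (-0.14 to 0.49) and 0.73 (0.52 to 0.95).

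**Figure D3:**
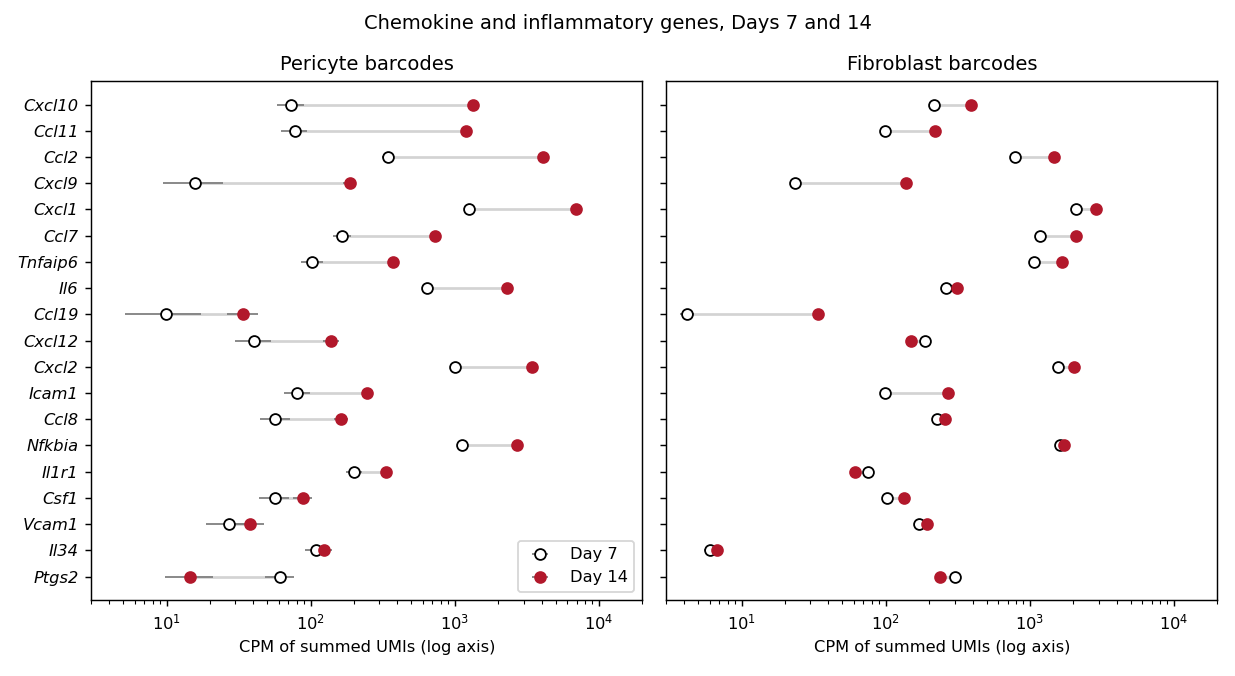
Summed CPM on a log axis for the 19 measured chemokine and inflammatory genes in pericyte barcodes (left) and fibroblast barcodes (right), open circles for Day 7 and red circles for Day 14, with exact Poisson intervals. In pericytes 18 of the 19 Day 14 values lie to the right of the Day 7 values, and Ptgs2 lies to the left.

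Promoter sequences are shown for 3 of these genes, picked among those that were higher on Day 14 and held a match to the NF-κB motif. Each is the stretch of 200 bases just before the transcription start in RefSeq (build GRCm38.p6, which is the mm10 build that the submitters named), on the gene's strand, with matches to the 10-base NF-κB motif in capitals. The windows are chr5:92348890-92349089 on the minus strand for Cxcl10, chr5:90891045-90891244 on the plus strand for Cxcl1 and chr5:30012914-30013113 on the plus strand for Il6.
Cxcl10: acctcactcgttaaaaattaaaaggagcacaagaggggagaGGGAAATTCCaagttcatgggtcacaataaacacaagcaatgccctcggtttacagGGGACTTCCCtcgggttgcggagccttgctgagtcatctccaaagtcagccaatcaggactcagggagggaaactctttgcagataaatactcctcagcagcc
Cxcl1: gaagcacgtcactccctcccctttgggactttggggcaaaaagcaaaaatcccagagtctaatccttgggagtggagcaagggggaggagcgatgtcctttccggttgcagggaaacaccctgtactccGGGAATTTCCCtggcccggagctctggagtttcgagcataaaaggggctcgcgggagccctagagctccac
Il6: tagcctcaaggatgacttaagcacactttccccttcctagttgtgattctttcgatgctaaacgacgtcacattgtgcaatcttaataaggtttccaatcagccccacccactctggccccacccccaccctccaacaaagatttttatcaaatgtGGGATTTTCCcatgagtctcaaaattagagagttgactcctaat

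The matches begin 159 and 103 bases before the start in Cxcl10, 71 and 70 bases before it in Cxcl1, where the 2 overlap on opposite strands, and 44 bases before it in Il6. Of the 22 genes of the list, 16 had a promoter in the table, and 7 of these held the motif on either strand within 250 bases before the start, namely Cxcl1, Cxcl2, Cxcl10, Il6, Csf1, Nfkbia and Il1r1. Of these, Csf1 and Il1r1 were not called higher on Day 14. Ccl8, Ccl19, Cxcl9, Cxcl12, Icam1 and Tnfaip6 were called higher on Day 14 and had a promoter without a match. The table held no promoter of Ccl2, Ccl7, Ccl11, Cxcl5, Il34 or Vcam1. In the contractile list 3 of 19 genes held the motif, in the mural list 1 of 18 and in the immediate early list 2 of 13. The motif was found in 3.9% of all 32851 promoters of that length. That share counts promoters, while the list counts are genes with a match in any of their promoters. The 16 genes had 18 promoters. A match describes the letters only and does not show binding.

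Genes of the interferon response and the immediate early response were partly higher on Day 14. Over all genes 6.84% were higher and 7.89% lower. Of 8 measured interferon genes, Isg15 and Gbp2 were higher, none was lower and 6 were neither. Isg15, a ubiquitin-like modifier, was at 72.7 and 383 CPM in pericytes and 40.4 and 43.0 CPM in fibroblast barcodes. Of 15 immediate early and heat-shock genes, Fosb, Junb, Jund, Atf3, Nr4a1 and Dnajb1 were higher and 9 were neither. Junb, a subunit of AP-1, was at 1547 and 3150 CPM in pericytes and 1101 and 1306 CPM in fibroblast barcodes. Fos and Egr1 had log2 ratios of 0.36 and 0.12. Enzyme digestion was part of the preparation of every library, and its part in these values was not tested.

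More TGF-β and BMP genes were called higher than lower on Day 14, beside 6.84% higher and 7.89% lower over all genes. Among the measured genes, Smad7, Id1, Id3 and Bambi were higher on Day 14, Inhba, an activin subunit, was lower, and 11 were neither. Id3, a BMP target, was at 577 CPM on Day 7 and 1742 CPM on Day 14. Smad7, an inhibitor of receptor signalling, was at 78.5 and 201 CPM. Inhba was at 48.7 and 23.0 CPM, a lower call that does not set the list apart from all genes. Ccn2, which encodes connective tissue growth factor, was at 121 CPM on Day 7 and 20.4 CPM on Day 14 in pericytes, and at 34.0 and 105 CPM in fibroblast barcodes. For Ccn2 the 2 cell sets thus had opposite directions.

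Many matrix genes were lower on Day 14. Of 26 interstitial matrix genes, 11 were lower in pericytes, 3 were higher (Eln, Adamts1 and Adamts4) and 12 were neither, with a median log2 ratio of -0.77 against -0.19 in fibroblast barcodes. Over all genes 7.89% were lower and 6.84% higher in pericytes. Col1a1, the main fibrillar collagen chain, was at 6125 CPM (5986 to 6266) on Day 7, and on Day 14 it stood at 3036 CPM (2958 to 3115) in pericytes. Over the same days it was at 41300 and 52360 CPM in fibroblast barcodes, and at 1154 and 1407 CPM in macrophage barcodes. Col6a3 had a log2 ratio of -1.58, Fn1, fibronectin, was at 721 and 260 CPM, and Bgn, biglycan, was at 1516 and 638 CPM. The count of 11 was 7 when Dcn plus Col1a2 had to stay below 0.75% of UMIs, and 7 under the median of ratios or the mean of each cell's CPM.

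Some matrix genes ran opposite to fibroblast barcodes. Col15a1, a basement membrane collagen, was at 536 CPM (496 to 579) on Day 7, and on Day 14 it stood at 61.8 CPM (51.1 to 74.0) in pericytes, and at 78.0 and 261 CPM in fibroblast barcodes. Col8a1 was at 197 and 35.6 CPM in pericytes and 69.2 and 214 CPM in fibroblast barcodes. Mgp, an inhibitor of calcification, was at 1013 and 433 CPM in pericytes and 156 and 1233 CPM in fibroblast barcodes. Each of these genes was higher in pericytes than in fibroblast barcodes on Day 7 and lower on Day 14. Cd248, endosialin of activated mural and stromal cells, was at 383 and 69.1 CPM in pericytes and 417 and 303 CPM in fibroblast barcodes.

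Of the 16 basement membrane genes, Lamb1, Hspg2, Col15a1 and Serpinh1 were lower on Day 14, Lama5 was higher and 11 were neither. Over all genes 7.89% were lower and 6.84% higher, so the share higher was near that of all genes. Col4a1 had a log2 ratio of -0.64 (-0.70 to -0.58) and Col4a2 one of -0.20 (-0.28 to -0.12), short of the 2-fold limit. The proteases Adamts1 and Adamts4 were higher in pericytes on Day 14, at 781 and 2328 CPM for Adamts1 and 736 and 1950 CPM for Adamts4. In fibroblast barcodes Adamts4 was at 166 and 163 CPM.

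Of 23 measured contractile genes, none was higher on Day 14, Actg2 and Smtn were lower, and 21 were neither, beside 6.84% higher and 7.89% lower over all genes, so that the share lower was near that of all genes. The list had a median log2 ratio of 0.10 in pericytes and -0.34 in fibroblast barcodes. Acta2 had a log2 ratio of 0.05 (-0.01 to 0.11) in pericytes and -3.24 in fibroblast barcodes. Without members with a Myh11 UMI the pericyte value was -0.83, and it was -0.05 when Gm42418 and mitochondrial genes were left out of the scaling. Tagln, an actin-binding protein, was at 1267 and 2371 CPM, a log2 ratio of 0.90 (0.82 to 0.99). The count of contractile genes higher on Day 14 was 0 here and 4 when the 6 marker genes had to reach 0.3% of UMIs.

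Of 23 other mural genes measured, Vtn, Steap4 and Gm13889 were higher on Day 14, Heyl was lower and 19 were neither. With 6.84% of all genes higher and 7.89% lower, most genes of any kind were neither, and the list is not set apart by that count. Steap4, a metalloreductase, was at 138 CPM (118 to 161) and 314 CPM (289 to 340) in pericytes and 48.8 and 35.4 CPM in fibroblast barcodes. Colec11, a collectin of the complement system outside this list, was at 19.8 and 182 CPM in pericytes. It was found in 15 of 187 members on Day 7 and 153 of 419 on Day 14.

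Among 16 measured vasoactive genes, S1pr3, Avpr1a and Ramp1 were higher on Day 14, F2r was lower and 12 were neither. S1pr3, a receptor for sphingosine 1-phosphate, was at 243 CPM (216 to 272) and 521 CPM (489 to 554) in pericytes. In fibroblast barcodes it was at 25.3 and 7.84 CPM, the opposite direction. Avpr1a, the vascular vasopressin receptor, was at 104 and 274 CPM. F2r, the thrombin receptor, was at 85.9 and 14.7 CPM in pericytes and 27.0 and 28.9 CPM in fibroblast barcodes. Of 8 measured angiopoietin and VEGF genes Angpt1 was higher and Pgf lower, Heyl was lower of 6 Notch genes, and none of 3 PDGF genes passed the limit. Single calls in such short lists are near the shares over all genes, 6.84% higher and 7.89% lower.

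Of 14 measured hypoxia and glycolysis genes, Eno1 was lower in pericytes on Day 14 and 13 were neither. In fibroblast barcodes 5 were lower, beside 3.7% lower over all genes. The pericyte count of 1 was near the 7.89% of all genes lower on Day 14. The median log2 ratio was -0.05 in pericytes and -0.71 in fibroblast barcodes. Slc2a1, the glucose transporter GLUT1, was at 38.0 and 50.3 CPM in pericytes and 60.1 and 13.7 CPM in fibroblast barcodes. The difference between the 2 medians was not tested.

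Cell cycle genes were lower on Day 14 in both cell sets. Of 14 measured genes, 11 were lower in pericytes and 12 in fibroblast barcodes, with medians of -2.34 and -2.83. Over all genes 7.89% were lower in pericytes and 3.7% in fibroblast barcodes. Mki67 was at 235 CPM (209 to 264) on Day 7, and on Day 14 it stood at 37.7 CPM (29.5 to 47.5) in pericytes, and at 44.1 and 5.19 CPM in fibroblast barcodes. In endothelial barcodes it was at 135 and 26.8 CPM. After thinning to 1000 UMIs, 20 of 187 members (10.7%, 6.66% to 16.0%) held at least 2 UMIs of 8 cell cycle genes on Day 7, and 5 of 419 (1.19%, 0.389% to 2.76%) did on Day 14. In fibroblast barcodes the shares were 3.16% and 0.284%. Those 20 members held 87.1% of the UMIs of these genes in the Day 7 pericytes.

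Genes of other cells also differed between the days. The largest ratios belonged to keratinocyte genes, and all 6 measured genes of that list were higher on Day 14 in pericytes and in fibroblast barcodes. The whole list summed to 14.0 CPM in pericytes on Day 7 and 872 CPM on Day 14. Its genes thus passed the limit of a mean CPM of 20 in pericytes only through Day 14. The pericyte count of 6 was fixed by that limit and only describes these genes. Krt14 was at 3.30 and 199 CPM in pericytes, 3.13 and 34.0 CPM in fibroblast barcodes and 3.51 and 33.2 CPM in macrophage barcodes. Of the 419 members of Day 14, 3 held 78.2% of the list's UMIs, and 1 member held 320 of the 381 Krt14 UMIs. Without the members above 1% keratinocyte-list UMIs the log2 ratio of Krt14 was 3.30 in place of 5.92. Neutrophil genes went the other way, with S100a9 at 66.1 CPM on Day 7 and at 0 on Day 14, and with 64.9 and 0.0494 CPM in fibroblast barcodes. Spp1 was lower on Day 14 in every set, at 178 and 9.42 CPM in pericytes and 2151 and 136 CPM in macrophage barcodes. In fibroblast barcodes it was at 295 and 7.49 CPM, and in endothelial barcodes at 160 and 0 CPM. Of the 215 Spp1 UMIs of the Day 7 pericytes, 1 member held 58.

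None of the 10 measured macrophage genes was higher or lower on Day 14, beside 6.84% higher and 7.89% lower over all genes. Over the alternatives the log2 ratio ran from -1.47 to 1.39 for Lyz2 and from -1.60 to 0.56 for C1qa. For C1qb it ran from -0.56 to 1.66. The UMIs of the macrophage list were concentrated on Day 14, when 22 of 419 members had at least 1% of their UMIs from it. Those members held 79.7% of the UMIs of the list. Without such members 416 genes were higher and 519 lower on Day 14, 13 chemokine genes were higher, Ccl2 was found in 60.2% of thinned members on Day 14, and 1 contractile gene was called higher.

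The same differences were seen cell by cell at equal depth. After thinning to 1000 UMIs, Ccl2 was found in 17.1% of pericytes on Day 7 (12.01% to 23.3%) and 60.1% on Day 14 (55.3% to 64.9%), and before thinning in 34.2% and 75.2%. The thinned shares of Ccl2 were 36.3% and 41.2% in fibroblast barcodes, 9.22% and 11.4% in endothelial barcodes and 18.97% and 30.6% in macrophage barcodes. Il6 was found in 31.0% of pericytes on Day 7 (24.5% to 38.2%) and 69.7% on Day 14 (65.0% to 74.1%), against 1.12% and 1.72% of macrophage barcodes and 18.8% and 21.0% of fibroblast barcodes. Ccl11 was found in 7.49% and 33.2% of pericytes and in no thinned endothelial barcode. A limit of 3 counts allows up to 1.46% of endothelial barcodes on Day 7 and 2.14% on Day 14 to hold a Ccl11 UMI at this thinned depth, which does not limit the share that express the gene. Before thinning Ccl11 was found in 2.43% and 3.57% of endothelial barcodes and in 14.97% and 49.6% of pericytes. On Day 14 the pericyte shares of Il6 and Ccl11 were above those of the other 3 sets.

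**Figure D4:**
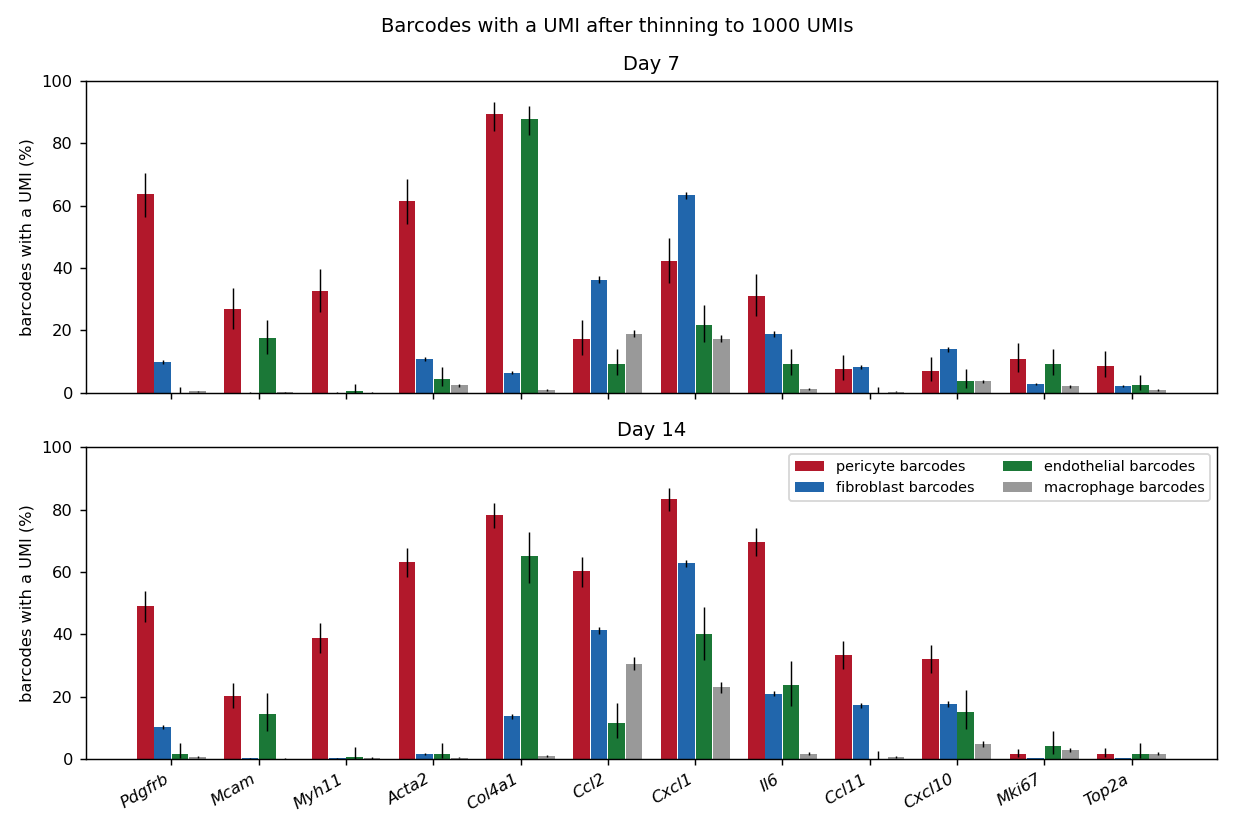
Share of barcodes with at least 1 UMI of each gene after thinning to 1000 UMIs, in pericyte, fibroblast, endothelial and macrophage barcodes on Day 7 (top) and Day 14 (bottom), with exact binomial intervals. On Day 14 the pericyte bars for Ccl2 (60.1%), Cxcl1 (83.5%) and Il6 (69.7%) are the highest of the 4 sets, and the Mki67 bar is at 1.43%.

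Members differed among themselves. The number of Ccl2 UMIs per thinned member on Day 14 ran from 0 to 40, with a median of 1, and the top 21 members held 30.1% of the Ccl2 UMIs. Cxcl1 ran from 0 to 43, with a median of 5, and 16.5% of members had none. On Day 7 the median of Ccl2 was 0 and 82.9% of members had none. Acta2 had a median of 1 UMI on both days and no UMI in 38.5% and 37.0% of members, and 36.97% and 28.9% of its UMIs lay in the top 5% of members. Col4a1 was more even, with a median of 3 and 2 UMIs.

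Smooth muscle myosin was used to describe the range from capillary pericyte to smooth muscle cell. After thinning to 1000 UMIs, 61 of 187 members (32.6%, 26.0% to 39.8%) held a Myh11 UMI on Day 7 and 162 of 419 (38.7%, 34.0% to 43.5%) on Day 14. This split is a range and not a cell type, since 40 and 102 of the positive members held exactly 1 such UMI, and 59 of the 126 and 130 of the 257 negative members had a Myh11 UMI before thinning. Median depth was 5225 UMIs in positive and 5899.5 in negative members on Day 7, and 4269.5 and 4049 on Day 14.

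Over all 5894 genes tested, 3.75% were higher and 2.8% lower in positive members on Day 7, and 1.73% were higher and 2.92% lower on Day 14. Positive members had more of the contractile genes. Of 22 measured contractile genes without Myh11, 6 were higher in positive members on Day 7 and 10 on Day 14, and Tagln, Tpm2, Myocd, Sncg and Mustn1 were higher on both days. The list's median log2 ratio was 0.76 and 0.93, beside -0.03 and 0.01 over all genes. Tagln was at 2157 CPM in positive and 895 CPM in negative members on Day 7, and at 3864 and 1407 CPM on Day 14. None of 23 mural genes and none of 16 vasoactive genes was higher or lower in positive members on either day. Kcnj8 was at 118 and 204 CPM in positive and negative members on Day 7, and at 78.7 and 149 CPM on Day 14.

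Of 19 measured chemokine and inflammatory genes, 3 were higher and 3 lower in positive members on Day 7, and none was higher and 1 lower on Day 14. Macrophage genes moved with the split in opposite directions on the 2 days, with 6 of 10 higher in positive members on Day 7 and 9 of 10 lower on Day 14. Lyz2, lysozyme of macrophages, was at 614 and 200 CPM in positive and negative members on Day 7 and at 153 and 548 CPM on Day 14. Ccl8 changed direction with them, with log2 ratios of 1.47 and -1.31, and the part of macrophage RNA in these values was not tested. Ccl2 was at 185 CPM in positive and 413 CPM in negative members on Day 7. It was at 3703 CPM in positive and 4391 CPM in negative members on Day 14, a log2 ratio of -0.25 (-0.31 to -0.18), and Cxcl1 was at 6956 and 6909 CPM. The log2 ratio of Day 14 over Day 7 was 4.32 (3.97 to 4.70) for Ccl2 in positive members and 3.41 (3.25 to 3.57) in negative members. For Cxcl1 it was 2.56 (2.42 to 2.71) and 2.42 (2.33 to 2.52). Of the 419 Ccl2 UMIs of the Day 7 pericytes, 1 member held 137. These Ccl2 values were not recomputed without that member. Mki67 was lower in positive members on both days, at 56.1 CPM in positive and 310 CPM in negative members on Day 7 with a log2 ratio of -2.18 on Day 14. In the members without any Myh11 UMI (67 on Day 7 and 127 on Day 14), 521 genes were higher on Day 14 and 632 lower.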

How the data were processed

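Per the labels, the submitters' processing notes name Cell Ranger 6.0.0 and the mm10 genome. The deposited files hold counts that the authors made: whole-number UMI counts of 32285 genes, not normalized, in barcodes with at least 500 UMIs. Symbols were taken by gene ID from a reference table of gene names for 32158 of these genes. Library totals were 38133650, 120940799 and 112713257 UMIs on Days 3, 7 and 14. UMIs were summed over the barcodes of a set in a library and expressed as CPM. Levels had exact Poisson intervals, ratios exact conditional binomial intervals and shares Clopper-Pearson intervals, all covering counting error only. Genes called between sums needed a mean CPM of at least 20, and a count of 0 was set to 3 counts for a ratio. Thinning drew 1000 UMIs per barcode with a fixed seed.

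Members, gene lists and comparisons were chosen with earlier results of these data known. Named genes were those of the lists and, by size, the 12 highest and 12 lowest between days and against fibroblast barcodes at a mean CPM of at least 50. Endothelial barcodes had at least 3 UMIs and 0.1% of UMIs of Pecam1 plus Cdh5, Dcn plus Col1a2 below 1.5% and fewer than 5 UMIs of the pericyte genes. Macrophage barcodes had at least 1% of C1qa, C1qb, C1qc and Lyz2 and Dcn plus Col1a2 below 0.3%. Doublets were kept. As an alternative, the highest scrublet scores were removed (scanpy 1.11.5, 1432 and 762 barcodes on Days 7 and 14), which took out 15 and 29 members. The caller itself marked 7.93% and 5.92%. The calculations used Python 3.11.15, numpy 2.4.6, scipy 1.17.1 and pandas 2.3.3 and were tested on simulated counts. In all 20 alternatives were tried. A gene of the TGF-β and BMP list is not reported here.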

Additional observations from a re-analysis of the deposited data

Results flagged for a closer look

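The Day 3 library, which entered no comparison, held 9 barcodes that met the same limits, 0.231% of 3891 (0.106% to 0.439%). Any count above 3 exceeds the 0.0771% that a count of 0 allows, so that limit does not show what these barcodes are. Their median depth was 20258 UMIs. Rgs5 was at 3106 CPM, Pdgfrb at 814 CPM, Acta2 at 5373 CPM and Cxcl1 at 1843 CPM, and 1 barcode held 688 of the 1268 Acta2 UMIs.

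Of the genes called in both sets, most had the same direction, with 73 higher in both and 94 lower in both on Day 14. Another 9 were higher in pericytes and lower in fibroblast barcodes, and 8 were the reverse. Col15a1, Col8a1, Mgp, S1pr3 and Ccn2, described above, are among the genes of opposite direction. With 1 library per day the difference was not tested across samples. The log2 ratio in pericytes minus that in fibroblast barcodes was -4.86 for Col15a1, -4.10 for Col8a1, -4.20 for Mgp, 2.79 for S1pr3 and -4.19 for Ccn2.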

How the results depend on the processing

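Of 20 alternatives, 18 were planned and 2 (without members with many keratinocyte UMIs, without members on barcodes that both libraries hold) were chosen after seeing the data. The share of pericytes on Day 7 was 1.14% of barcodes with at least 2000 UMIs. Contractile genes higher on Day 14 numbered 4 with the pericyte genes at 0.3% of UMIs or more, 1 with Pecam1 plus Cdh5 at 0, without called doublets, without members with macrophage UMIs or without members with a Myh11 UMI, 2 under the median of ratios and 6 at 1.5-fold. Contractile genes lower numbered 1 at a mean CPM of at least 50, 5 at 1.5-fold and 4 without members with a Myh11 UMI. Interstitial matrix genes lower numbered 7 with Dcn plus Col1a2 below 0.75%, under the median of ratios or under the mean of each cell's CPM, and 17 at 1.5-fold, where 7 basement membrane genes were lower. Without Gm42418 and mitochondrial genes 715 genes were lower on Day 14. At a mean CPM of at least 50, 255 genes were higher and 158 lower on Day 14, 351 higher and 255 lower than in fibroblast barcodes, 156 also differed from the fibroblast ratio, and 5 cell cycle genes were lower. At a mean CPM of at least 5 these counts were 620 and 1194, 1204 and 654, and 634. At 1.5-fold they were 832 and 1173, 1369 and 674, and 896. The count that differed from the fibroblast ratio was 550 without members with a Myh11 UMI, against 288. Thinned to 2000 UMIs, Acta2 was found in 73.3% and 73.5% of pericytes on Days 7 and 14 and Ccl2 in 69.4% on Day 14. The cause of these shifts was not tested, beyond fewer or more genes passing a changed limit. Of 240 named ratios between days, 43 changed sign under at least 1 alternative, of which 1 had passed the 2-fold limit. Among called values the direction of 2 reversed: Ptprc over fibroblast barcodes was -0.38 on the log2 scale without members with macrophage UMIs, and Clec3b between days was -0.17 without members with a Myh11 UMI. The chemokine list had 13 to 16 genes higher on Day 14. No paired analysis was possible because each day is 1 library. Depth limits genes at a few UMIs per library.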
